A study of Mus musculus with 16 samples.

Results

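The comparison described here sets hearts of mice exposed to an aggressor for 3 days (T3R1) against hearts of mice exposed for 2 days (T2R1), across every probe on the array that names a mouse microRNA. Its members are 8 samples, 4 T3R1 and 4 T2R1, of 16 samples in the series, chosen by the exposure and rest times in the sample labels. All mice were C57BL/6, an inbred laboratory strain, and the study models post-traumatic stress disorder. T3R1 mice spent 6 h a day for 3 days in a wire mesh box inside an aggressor's cage and then rested for 1 day. T2R1 mice had 2 days of the same exposure and 1 day of rest. T1R1 mice, with 1 day of exposure and 1 day of rest, and control mice, boxed without an aggressor, entered the fit and give the values within slide runs. Age and sex of these animals are not given in the sources used here. The protocol text in the labels speaks of longer exposures, so the days used here are those of the group codes. Control titles carry the code C2R1, from which no days were read. T3R1 and control mice may therefore also differ in the days spent boxed. Total RNA came from individual hearts, and each sample was taken as a separate heart. The comparison asks what 1 more day of exposure adds at the same rest time.

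MicroRNAs are short RNAs that are loaded into Argonaute proteins and repress messenger RNAs, mostly through pairing of their seed, bases 2 to 8, with sites in the target. Members of a family share that seed and therefore much of their set of targets. In heart muscle the muscle microRNAs of the miR-133, miR-208 and miR-499 groups are abundant, and so are miR-30, let-7 and miR-29 family members. A star in an array name marks the strand of a hairpin that is usually the less abundant one.

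The sequences that carry the comparison are those of the called probes and of the family members that differ from them by few bases. Of 23 names looked up, 18 were matched by hand to a strand in RefSeq (GRCm38.p6), and 7 of the 11 called probes have a sequence here. Capitals mark the seed. The miR-30 guide strands matched here share the seed GUAAACA, and miR-30a and miR-30e differ by 1 substitution, C13U, with miR-30a first and positions counted from 1 at the 5′ end. Mature miR-30a lies at chr1:23272274-23272295 on the plus strand, outside any other annotated gene. Mature miR-30e lies at chr4:120772660-120772681 on the minus strand, within the span of the protein-coding gene Nfyc, and miR-30e* lies at chr4:120772618-120772639 of the same hairpin.
miR-30a: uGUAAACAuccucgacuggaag
miR-30e: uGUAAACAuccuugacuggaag
miR-30c: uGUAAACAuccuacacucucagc
miR-30e*: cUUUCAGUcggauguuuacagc

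The 9 let-7 probes share the seed GAGGUAG. Against let-7a, let-7c differs by A19G, let-7e by U9G and let-7f by G12A, and each of these is a single substitution. Mature let-7a lies at chr13:48538239-48538260 on the minus strand, the copy given by RefSeq in the table used here.
let-7a: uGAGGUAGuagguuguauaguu
let-7c: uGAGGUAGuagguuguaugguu
let-7e: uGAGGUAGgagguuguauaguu
let-7f: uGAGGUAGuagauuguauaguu

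The other called probes with a sequence share no seed with one another. Mature miR-149 lies at chr1:92850381-92850403 (plus strand) within Gpc1, and miR-138-2* at chr8:94324359-94324379 (plus strand) within Nup93. Mature miR-582-3p lies at chr13:109324790-109324810 (plus strand) within Pde4d, and miR-509-3p at chrX:68010115-68010135 (minus strand) outside other annotated genes.
miR-149: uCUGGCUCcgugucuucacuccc
miR-138-2*: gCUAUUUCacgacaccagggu
miR-582-3p: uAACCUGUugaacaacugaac
miR-509-3p: uGAUUGACauuucuguaaugg

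The arrays were 2-colour microRNA arrays with locked nucleic acid probes, and each held 2 samples of one group, one labelled with the dye Hy3 (samples 1 and 3) and one with Hy5 (samples 2 and 4). Slide run, taken here from the leading digits of the slide numbers, differed between the groups. The time stamps of the arrays put both runs on the same day, in mixed order. Both T3R1 arrays lay in run 1, with the control arrays, and both T2R1 arrays in run 2, with the T1R1 arrays, so exposure and run cannot be told apart in T3R1 against T2R1. Landing lights, bright spots that hold no sample RNA, averaged 15892 and 15680 intensity units on the T3R1 arrays, against 24378 and 22746 on the T2R1 arrays. Over all 8 arrays they averaged 15723 ± 263 in run 1 and 24784 ± 2125 in run 2 (SD, n = 4 arrays each, exact permutation p = 0.0286, the smallest the 70 regroupings allow). T3R1 samples had 189 ± 28.2 mouse probes above background and T2R1 samples 193 ± 19.1 (SD, n = 4 each, two-sided exact permutation p = 0.771), where background is the 95th percentile of 144 probes for human viruses in that sample. The 23 small reference RNAs had a median log2 difference of -0.004, 13 of them lower in T3R1. Correlation over probes was 0.95 to 0.984 within T3R1, 0.969 to 0.991 within T2R1 and 0.938 to 0.984 between the groups.

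Of 1023 mouse probes, 11 were called between T3R1 and T2R1 hearts by limma at an adjusted p under 0.05, which is 1.08% of those tested. In T3R1, 7 probes (0.684%) were lower, namely miR-720, miR-30a, let-7a, miR-30b, miR-133a*, miR-30e* and miR-149, and 4 probes (0.391%) were higher, namely miR-582-3p, miR-467a*, miR-138-2* and miR-509-3p. The values of the groups did not overlap for 10 of the 11, where 62 of 1022 probes (6.07%) had groups without overlap, and miR-133a* was the exception. The called differences ran from a T3R1 level 0.483 times that of T2R1 for miR-720 to 1.32 times for miR-582-3p. Without the adjustment, 102 probes had p under 0.05, 47 higher and 55 lower. Only 142 probes were above background in all 8 samples and 771 in none, and 8 of the 11 called probes belong to the 142.

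The split between higher and lower depended on the step between arrays. It was 2 higher and 39 lower with median scaling, 1 and 5 with quantile normalization, and 0 and 1 with no step between arrays. With the sample number of the labels as a block (the replicate block), 28 probes were called, 10 higher and 18 lower. That fit used the 8 samples alone, with sample number in place of dye, and kept the array as a random block. Its array correlation was -0.14, against 0.25 in the main fit, so its standard errors are not those of the main fit. Of the 11 called here, 8 stayed called with the block, and miR-509-3p (adjusted p = 0.0575), miR-30e* (0.0547) and miR-467a* (0.0575) did not, by limma in each case.

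**Figure D1:**
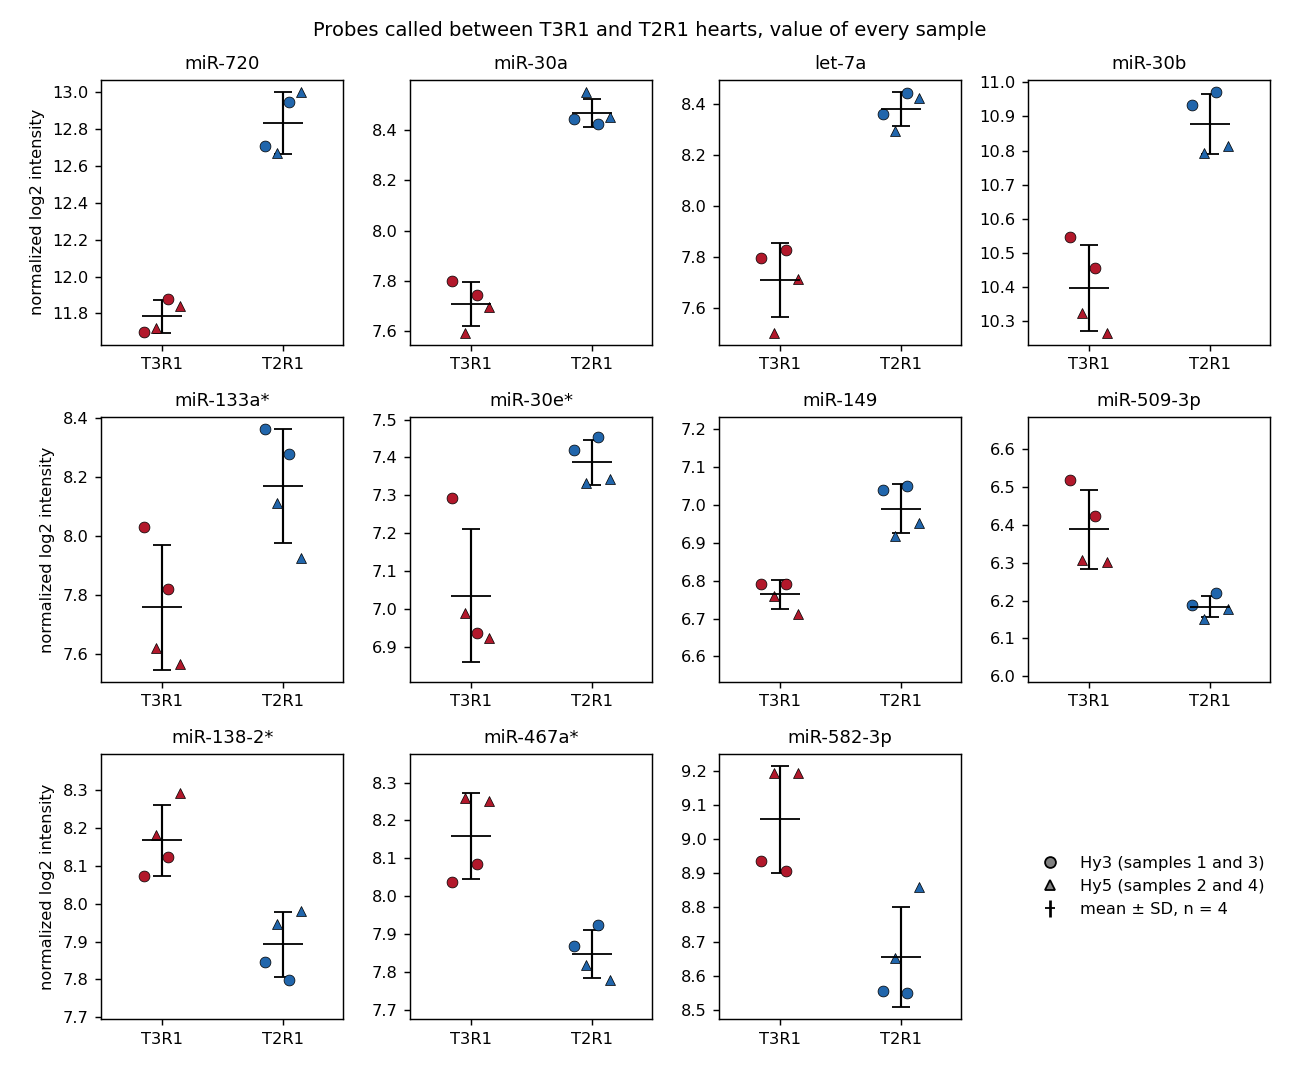
Normalized log2 intensity of the 11 called probes in each of the 4 T3R1 (red) and 4 T2R1 (blue) samples, with the mean and SD. Circles are Hy3 samples and triangles Hy5 samples, and each panel has its own axis. The groups are apart in every panel but that of miR-133a*, where the highest T3R1 value (8.03) exceeds the lowest T2R1 value (7.93).

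**Figure D2:**
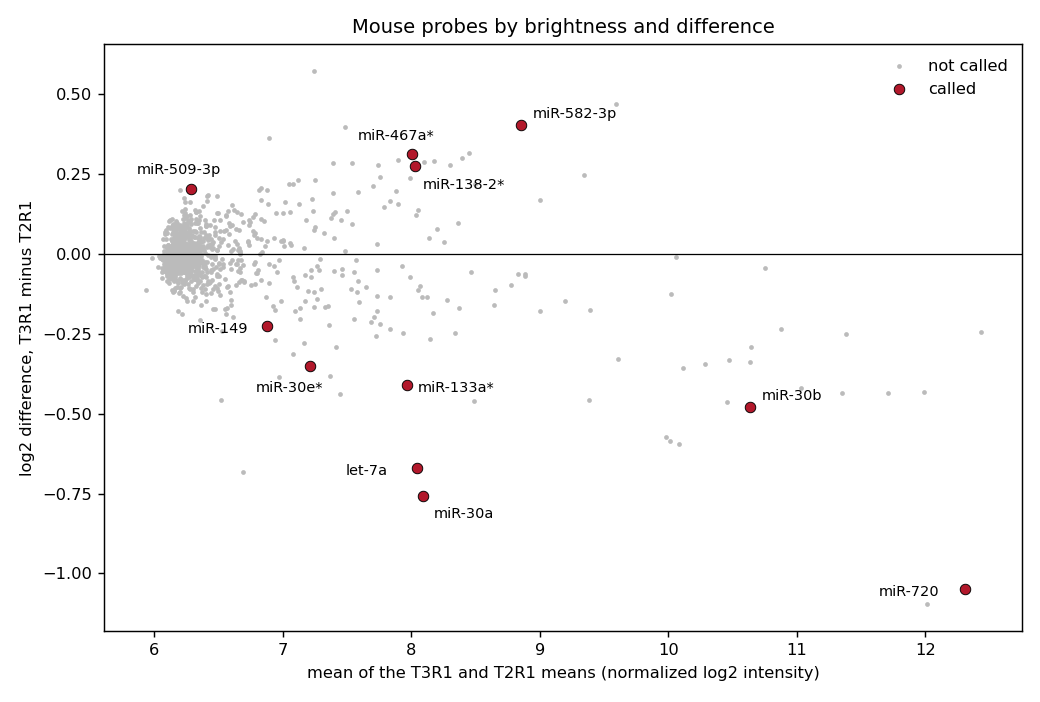
Log2 difference, T3R1 minus T2R1, of each mouse probe against its mean normalized log2 intensity over both groups. The 11 called probes are red and named, and of the 142 probes above background in all 8 samples 88 lie below 0.

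The miR-30 family, which is abundant in heart muscle cells and is known in rat heart cells to repress connective tissue growth factor, was lower in T3R1 for 5 of 5 guide strands, with a median log2 difference of -0.48. With median scaling all 5 were called and the median was -0.84, and 1 of 5 was called with the array correlation of bright probes or with arrays averaged. In the main fit the median over all probes was -0.01, and over the 142 probes above background in all samples -0.07. With median scaling the median over all probes was -0.02, and that of the 142 was not computed. Other bright families also moved down there, to medians of -0.48 for let-7 and -0.62 for miR-29. Of the 5, 2 fell by the limma test. All values below are normalized log2 intensities unless a difference is named. In these whole hearts, fewer cells of a type and less RNA per cell cannot be told apart.

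miR-30a (probe 146086) read 7.80, 7.60, 7.74 and 7.70 in the T3R1 samples, against 8.44, 8.55, 8.42 and 8.45 in the T2R1 samples. The 4 T3R1 values lay close together and well below all 4 T2R1 values. The T3R1 level was 0.592 times that of T2R1, a log2 difference of -0.76 ± 0.07 (SE, n = 4 each, limma adjusted p = 6.53e-05). The neighbouring sequence miR-30e read 9.99, 9.79, 9.66 and 9.44 in T3R1 and 10.17, 10.01, 10.58 and 10.46 in T2R1. Its groups did not overlap, but the gap between the lowest T2R1 sample and the highest T3R1 sample was small, and the log2 difference of -0.59 ± 0.14 missed the threshold (limma adjusted p = 0.0578).

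miR-30b (probe 146112) read 10.55, 10.33, 10.46 and 10.27 in T3R1, against 10.93, 10.79, 10.97 and 10.81 in T2R1. Within each group the Hy3 samples were the higher ones, and all T3R1 values lay below all T2R1 values. It fell by 0.48 on the log2 scale, to 0.717 times the T2R1 level (SE 0.11, limma adjusted p = 0.0483). miR-30c had a log2 difference of -0.42 ± 0.12 and miR-30d one of -0.22 ± 0.07 (limma adjusted p = 0.167 for both), and the groups overlapped for each. With the replicate block miR-30d passed as well (adjusted p = 0.0413), and 3 of 5 guides were called.

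Of the other strands of these hairpins, miR-30e* alone was above background. It read 7.29, 6.99, 6.94 and 6.92 in T3R1 and 7.42, 7.33, 7.45 and 7.34 in T2R1, a log2 difference of -0.35 ± 0.07 (limma adjusted p = 0.0314). The first T3R1 sample stood near the T2R1 values and the other 3 lay lower together. miR-30a*, which differs from miR-30e* by A18G (miR-30e* first), was above background in none of the 8 samples, with a log2 difference of -0.03 ± 0.05. Without the T3R1 array of samples 3 and 4, the family had 5 of 5 guides lower and a median of -0.42, with miR-30a as the one call.

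The let-7 family, known for repressing growth genes such as Ras and Hmga2 and held low by the Lin28 proteins in early development, had 8 of 9 probes lower and a median log2 difference of -0.10, with let-7a as its one call. let-7a (probe 147162) read 7.80, 7.51, 7.83 and 7.72 in T3R1, against 8.36, 8.29, 8.44 and 8.43 in T2R1. The groups lay far apart compared with their spread. The T3R1 level was 0.629 times that of T2R1, a log2 difference of -0.67 ± 0.07 (SE, n = 4 each, limma adjusted p = 6.53e-05).

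Its nearest relatives in sequence did not pass. let-7f had a log2 difference of -0.20 ± 0.08 (limma adjusted p = 0.371), let-7c of -0.18 ± 0.09 (0.545) and let-7e of -0.06 ± 0.09 (0.886). miR-98 was the one member higher in T3R1, by 0.14 ± 0.07 (0.488), and lower by 0.16 with median scaling. Probes for sequences 1 base apart can share signal, and the specificity of these probes was not tested. The family count moved with single arrays and samples. Without the T3R1 array of samples 3 and 4, 3 of 9 were lower and the median was 0.09, and without the T2R1 array of samples 1 and 2, 5 of 9 were lower with a median of -0.01. Without T3R1 sample 4 alone it was 7 of 9 with a median of -0.03. let-7a was still called without either array, and its difference without the first was -0.73. With median scaling 9 of 9 were lower, 4 were called and the median was -0.48.

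The probe named miR-720 (148686) showed the largest called difference. The name was given to a microRNA that was later traced to a fragment of a transfer RNA. It read 11.70, 11.72, 11.88 and 11.84 in T3R1, against 12.71, 12.67, 12.95 and 13.00 in T2R1, and all T2R1 values were higher by a wide margin. It fell by 1.05 on the log2 scale (SE 0.10, limma adjusted p = 0.00025), to 0.483 times the T2R1 level.

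miR-133a* (probe 17653) is the passenger strand of miR-133a, which restrains growth of heart muscle cells. It read 8.03, 7.62, 7.82 and 7.57 in T3R1, against 8.36, 8.11, 8.28 and 7.93 in T2R1. Hy3 samples were higher than Hy5 samples in both groups, so the groups overlapped although each dye taken alone separated them. The log2 difference was -0.41 ± 0.07 (limma adjusted p = 0.0114). Its guide strand miR-133a had one of -0.34 ± 0.17 and did not pass (limma adjusted p = 0.488).

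miR-149 (probe 42810) was dimmer, above background in 1 of 4 T3R1 and 4 of 4 T2R1 samples. It read 6.79, 6.76, 6.79 and 6.71 in T3R1, against 7.04, 6.92, 7.05 and 6.95 in T2R1. The gap between groups was narrow but held in all 8 samples, and the log2 difference was -0.23 ± 0.04 (limma adjusted p = 0.0272).

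In T3R1, 4 probes rose. miR-582-3p (probe 42939) read 8.94, 9.19, 8.91 and 9.19 in T3R1, against 8.55, 8.65, 8.55 and 8.86 in T2R1. It had the largest called rise, to 1.32 times the T2R1 level (log2 difference 0.40 ± 0.08, limma adjusted p = 0.0272). Its opposite strand miR-582-5p was above background in no sample, with a log2 difference of -0.06 ± 0.09.

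miR-467a* (probe 148646), from a rodent cluster in the gene Sfmbt2, read 8.04, 8.26, 8.08 and 8.25 in T3R1, against 7.87, 7.82, 7.92 and 7.78 in T2R1. All T3R1 values were higher, and the log2 difference was 0.31 ± 0.07 (limma adjusted p = 0.0392). miR-138-2* (probe 148278) is the passenger strand of miR-138, a regulator of dendritic spines in rat neurons. It read 8.07, 8.18, 8.12 and 8.29 in T3R1, against 7.85, 7.95, 7.80 and 7.98 in T2R1 (log2 difference 0.28 ± 0.04, limma adjusted p = 0.00152). The groups were close but apart, and miR-138 itself was above background in no sample.

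miR-509-3p (probe 42639) was above background in none of the 8 samples, so its rise is a difference between 2 dim signals. It read 6.52, 6.31, 6.42 and 6.30 in T3R1, against 6.19, 6.15, 6.22 and 6.18 in T2R1 (log2 difference 0.20 ± 0.04, limma adjusted p = 0.0283). The rises of miR-582-3p, miR-467a* and miR-138-2* shrank to 0.04, 0.05 and 0.01 with median scaling and were not called there, while miR-509-3p kept a difference of 0.21.

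Run and exposure cannot be told apart across the groups. The called probes and the other miR-30 guides were therefore also read within runs. The contrasts were T3R1 minus control in run 1 and T2R1 minus T1R1 in run 2. In neither contrast was any probe called by limma (0 of 1022, 0% of those tested, in each), with 73 and 36 probes at an unadjusted p under 0.05. These contrasts share samples with T3R1 minus T2R1, so the values are given side by side only.

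For miR-30a the log2 difference was -0.04 ± 0.07 for T3R1 minus control and 0.04 ± 0.07 for T2R1 minus T1R1. For let-7a it was 0.10 ± 0.07 and 0.26 ± 0.07, and for miR-133a* 0.01 ± 0.07 and -0.01 ± 0.07. For these 3 probes T3R1 and control hearts, on slides of the same run, lay at most about 0.10 apart on the log2 scale.

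miR-720 gave 0.05 ± 0.14 and 0.19 ± 0.10, with 1 usable control sample, and miR-582-3p gave -0.01 ± 0.08 and 0.06 ± 0.08. For miR-30b, T3R1 minus control was -0.37 ± 0.11 and T2R1 minus T1R1 was -0.04 ± 0.11. Within run 1 miR-30b was not called (limma adjusted p = 0.467). Of the uncalled guides, miR-30e gave -0.42 ± 0.14 and 0.19 ± 0.14, and miR-30c -0.38 ± 0.12 and 0.02 ± 0.12. miR-30d gave -0.05 ± 0.07 and -0.08 ± 0.07. In run 1, miR-30a and miR-30d thus lay near control, while miR-30b, miR-30c and miR-30e lay lower, none of them called. miR-30e* gave -0.22 ± 0.07 and -0.16 ± 0.07, and miR-138-2* gave 0.12 ± 0.04 and -0.01 ± 0.04. miR-149 gave -0.06 ± 0.04 and -0.07 ± 0.04, miR-467a* 0.10 ± 0.07 and 0.10 ± 0.07, and miR-509-3p 0.11 ± 0.04 and -0.03 ± 0.04.

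Control minus T1R1 crosses the same runs with none of the same samples. That difference was -0.68 ± 0.07 for miR-30a, -0.51 ± 0.07 for let-7a, -0.91 ± 0.14 for miR-720, -0.43 ± 0.07 for miR-133a* and 0.46 ± 0.08 for miR-582-3p. It was -0.29 ± 0.07 for miR-30e*, -0.23 ± 0.04 for miR-149 and 0.31 ± 0.07 for miR-467a*. For miR-30b it was -0.15 ± 0.11, for miR-138-2* 0.15 ± 0.04 and for miR-509-3p 0.07 ± 0.04. In size it was smaller than T3R1 minus T2R1 for these probes, for miR-30e* and miR-720, and for both let-7a and miR-30a. In size it was larger for miR-582-3p, miR-149 and miR-133a*, and about equal for miR-467a*. It had the sign of T3R1 minus T2R1 for 11 of 11 called probes, as it did for 65.6% of all probes. These shares are not like for like, since the 11 were chosen by their difference. Of all probes, 771 were above background in none of the 8 samples. Across the 141 probes above background in all 8 samples and measured in all 4 groups, the Pearson correlation of both differences was 0.71. The points share the pair of slide runs and the normalization, and probes are not independent replicates. For the uncalled miR-30 guides, control minus T1R1 was 0.02 ± 0.14 for miR-30e, -0.02 ± 0.12 for miR-30c and -0.25 ± 0.07 for miR-30d.

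**Figure D3:**
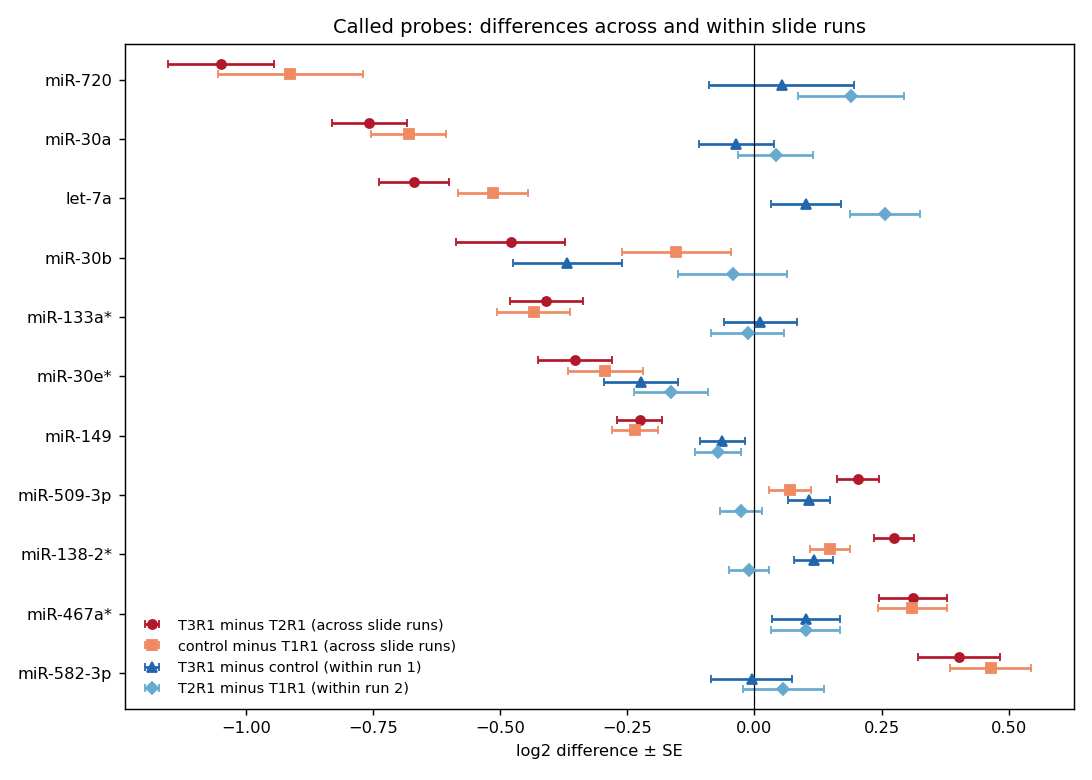
Log2 difference ± SE of the 11 called probes in 4 contrasts of the same limma fit: T3R1 minus T2R1 and control minus T1R1, which cross the slide runs, and T3R1 minus control and T2R1 minus T1R1, each within a run. For miR-582-3p, miR-133a*, miR-720, let-7a and miR-30a both contrasts across runs lie far from 0 on the same side, while T3R1 minus control lies near 0.

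The heart and skeletal muscle microRNAs checked the labelled tissue, and 4 of the 6 measured were above background in all 8 samples. miR-206 was above it in 6 of the 8 and miR-208b in 3. miR-208a-3p, encoded in the alpha myosin heavy chain gene, and miR-133b had group means of 11.77 and 11.49 in T3R1, against 12.21 and 11.92 in T2R1. The guide strand of miR-1, an abundant muscle microRNA, was not analysed here. All 6 measured members were lower in T3R1, none passed the test, and their median log2 difference was -0.31.

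miR-133b read 11.81, 11.53, 11.36 and 11.26 in T3R1, against 11.87, 11.86, 12.03 and 11.94 in T2R1, a log2 difference of -0.44 ± 0.15 (limma adjusted p = 0.25). miR-208a-3p read 12.34, 11.81, 11.85 and 11.08 in T3R1, against 12.42, 11.81, 12.65 and 11.95 in T2R1 (-0.43 ± 0.17, limma adjusted p = 0.371). In both, T3R1 sample 1 was the highest of its group and sample 4 the lowest. miR-499, encoded in a slow myosin gene, had a log2 difference of -0.27 ± 0.11 (limma adjusted p = 0.421).

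The summed intensity of the 6 muscle probes was 6093 to 10620 units over the T3R1 samples and 9143 to 12720 over the T2R1 samples, and the ranges overlap. Without the T3R1 array of samples 3 and 4 the median of the list was -0.14, and with median scaling 4 of 6 were called lower. In the authors' deposited table miR-208a-3p was higher in T3R1 by 0.04 and 5 of 6 were lower.

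Among microRNAs of blood, vessels and other cells, none was called in either direction in the main fit. With the replicate block miR-21, which is on the leukocyte list as well as on the remodelling list, was called higher. The 7 erythroid probes were all lower, with a median log2 difference of -0.17. Without the T3R1 array of samples 3 and 4, 4 of the 6 measured were lower (median -0.06), and with median scaling 1 was called (median -0.50). miR-451, the main red cell microRNA, had usable values in 2 of 4 T3R1 samples, 11.74 and 11.18, against 12.66, 11.97, 12.65 and 12.94 in T2R1. Both usable T3R1 values came from samples 3 and 4, which share an array. The log2 difference of miR-451 was -1.10 ± 0.46 (limma adjusted p = 0.462) in a fit that leaves out the missing values. Its T3R1 side thus rests on that array alone. miR-144, made from the same primary transcript, had one of -0.46 ± 0.33 with all samples measured. The summed intensity of the 6 erythroid probes measured throughout was 1317 to 1753 units in T3R1 and 1664 to 1993 in T2R1. That sum leaves out miR-451. Its brightest member, miR-16 (means 9.30 in T3R1 and 9.48 in T2R1), and miR-15a are also counted in the miR-15/16 family below. The sum is therefore not read as blood content, and whether blood in the tissue bears on the called probes was not tested.

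Endothelial miR-126-3p, encoded in Egfl7, read 11.50, 11.25, 11.01 and 10.77 in T3R1, against 11.59, 11.55, 11.71 and 11.42 in T2R1 (-0.43 ± 0.13, limma adjusted p = 0.167). The values overlapped, and 5 of 6 endothelial probes were lower (4 without the T3R1 array of samples 3 and 4), with summed intensities of 2313 to 3571 units in T3R1 and 3398 to 4016 in T2R1. With median scaling, and also without the T3R1 array of samples 1 and 2, 6 of 6 endothelial probes were lower and 1 was called. Of 11 leukocyte and inflammation probes, 9 were lower (6 without the T3R1 array of samples 3 and 4), with sums of 1510 to 1722 units in T3R1 and 1603 to 1728 in T2R1. With median scaling 9 of the 11 were lower and 1 was called lower. All 3 smooth muscle probes were lower (2 of 3 with the replicate block), and miR-143 among them had 1 usable T2R1 value of 4.

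Markers of epithelium (11 probes) and liver (3) were above background in no sample, and of 8 neuron probes miR-129-5p alone was above it, in 1 sample. The summed levels of these lists overlapped between the groups.

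Of the families with a bright signal, miR-29, which represses collagen genes, had 3 of 3 lower, with a median of -0.29 and none called. miR-15/16 had 6 of 6 lower (median -0.17, none called) and the miR-125, miR-99 and miR-100 families 5 of 5 (median -0.11, none called). miR-29a itself read 10.50, 10.55, 9.97 and 9.86 in T3R1, against 10.41, 10.55, 10.83 and 10.95 in T2R1. The first pair of T3R1 samples, which share an array, lay within the T2R1 range and the second pair lay below it. Without that second array the medians were -0.09 for miR-29 and -0.03 for miR-15/16, and the miR-125, miR-99 and miR-100 families turned to 1 of 5 lower with a median of 0.06. With median scaling the 3 medians were -0.62, -0.40 and -0.40, with 1, 1 and 0 calls.

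**Figure D4:**
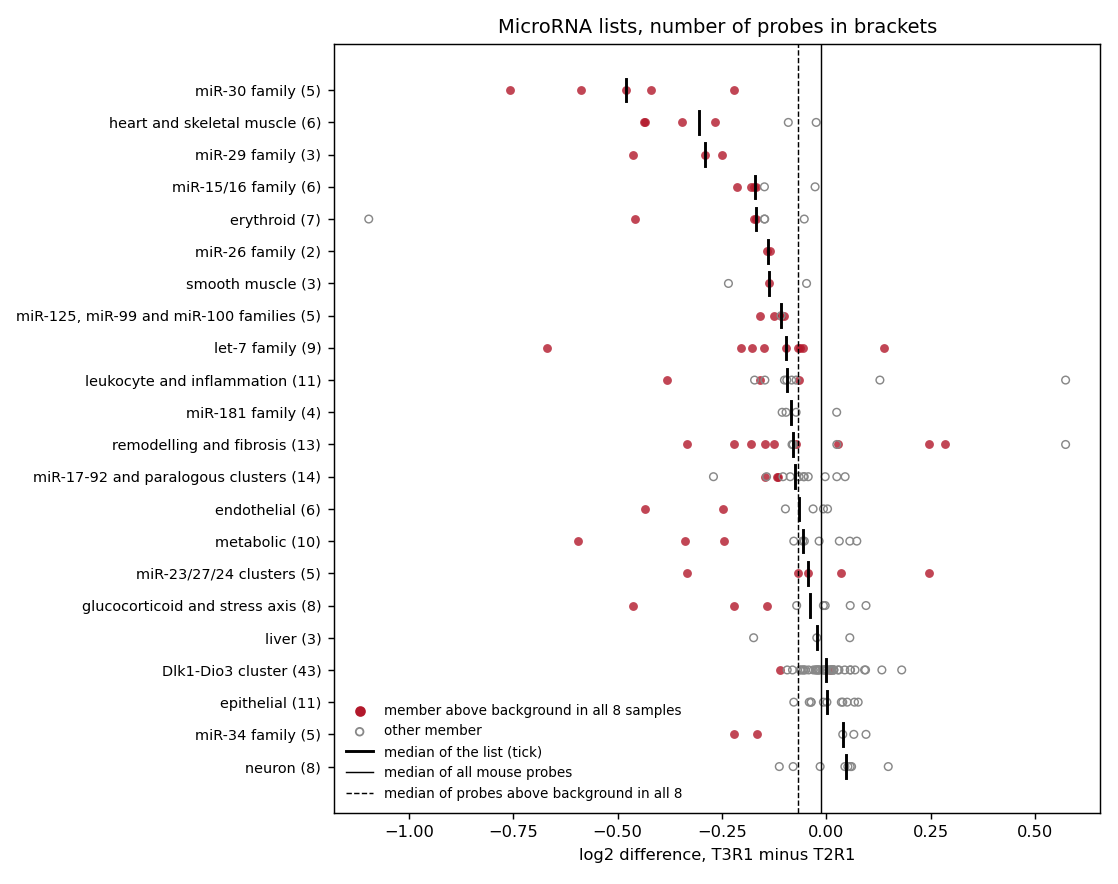
Log2 difference, T3R1 minus T2R1, of each probe in 22 microRNA lists, ordered by list median. Filled red points are probes above background in all 8 samples, open points are the others, black ticks are list medians, and vertical lines are the medians of all mouse probes (-0.01) and of the 142 probes above background in all samples (-0.07). The miR-30 family has the lowest median, -0.48.

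The list of the miR-17 cluster and its paralogs had 12 of 14 lower with a median of -0.08 (8 of 14 without the T3R1 array of samples 3 and 4), and the imprinted Dlk1-Dio3 cluster split 22 lower to 21 higher with a median of 0.00, with none called in either. Of the remodelling and fibrosis list, 8 of 13 were lower with a median of -0.08, and none was called. With the replicate block 3 members were called, miR-21 and miR-214 higher and miR-34a lower (-0.22, adjusted p = 0.035). Median scaling called 2 lower, and without the T3R1 array of samples 3 and 4 the list had 4 of 13 lower and a median of 0.04. Its members that were higher include miR-21, a microRNA that increases in fibroblasts of stressed hearts, and miR-214, which comes from the same transcript as miR-199a. miR-21, named here after its values were seen because it had the largest positive difference of any probe, read 7.27, 7.61, 7.41 and 7.83 in T3R1, against 6.67, 6.996, 6.86 and 7.29 in T2R1. Each T3R1 sample lay above the T2R1 sample of the same dye and number, but the groups overlapped and the log2 difference of 0.57 ± 0.19 did not pass (limma adjusted p = 0.234). With the replicate block, a fit with an array correlation of -0.14, miR-21 was called at 0.57 ± 0.03 (limma adjusted p = 0.000618). It was also called in the fit of the 8 samples alone without that block (limma adjusted p = 0.0211). For miR-21, T3R1 minus control was 0.52 ± 0.19 and not called (limma adjusted p = 0.467), with a control SD of 0.55. T2R1 minus T1R1 was 0.11 ± 0.19 and control minus T1R1 0.16 ± 0.19.

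miR-214 read 7.53, 7.77, 7.37 and 7.45 in T3R1, against 7.28, 7.37, 7.20 and 7.16 in T2R1. The groups just did not overlap (0.28 ± 0.08, limma adjusted p = 0.148), and with the replicate block it was called (adjusted p = 0.0298). For miR-214, T3R1 minus control was 0.33 ± 0.08 and not called (limma adjusted p = 0.301). T2R1 minus T1R1 was 0.03 ± 0.08 and control minus T1R1 -0.02 ± 0.08.

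Below the threshold the probe with the lowest p detects miR-378 and miR-378b, hosted by the metabolic regulator gene Ppargc1b in the case of miR-378. It read 10.17, 9.86, 9.66 and 9.45 in T3R1, against 10.47, 10.25, 10.50 and 10.30 in T2R1. The groups did not overlap, and the log2 difference was -0.59 ± 0.13 (limma adjusted p = 0.051). The second miR-378 probe had one of -0.34 ± 0.12 (limma adjusted p = 0.28), and was called with the replicate block (adjusted p = 0.0196).

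The other probes named by rank of p were miR-24-1*, miR-691, miR-499*, miR-1843-3p, miR-7a-2*, miR-677* and miR-101b, which were lower, and miR-1952, miR-351, miR-1945, miR-1186b, miR-767 and miR-181a-1*, which were higher. Their log2 differences ran from -0.57 for miR-691 to 0.47 for miR-1186b, and limma adjusted p values from 0.0657 to 0.167. Of these, miR-24-1*, miR-499*, miR-7a-2*, miR-677*, miR-1186b, miR-767 and miR-101b were called with the replicate block. miR-1186b and miR-767 were at -0.0029 and -0.0092 with median scaling.

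let-7a was called in 27 of 28 alternative settings, and miR-30a and miR-720 in 26 each. None of the 28 separates slide run from exposure. Leaving out saturated spots changed no call, as no mouse spot of the 8 samples was saturated. miR-138-2* was called in 16, miR-133a* in 15, miR-509-3p in 12 of the 27 settings that measured it, and miR-149 in 10. miR-582-3p and miR-30b were called in 7, and miR-30e* and miR-467a* in 6. When the correlation within arrays was estimated from bright probes (0.67 in place of 0.25), the 3 calls were miR-30a, let-7a and miR-720, and with the samples of an array averaged, 2 arrays against 2, the calls were miR-30a (limma adjusted p = 0.03) and let-7a (0.0221).

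**Figure D5:**
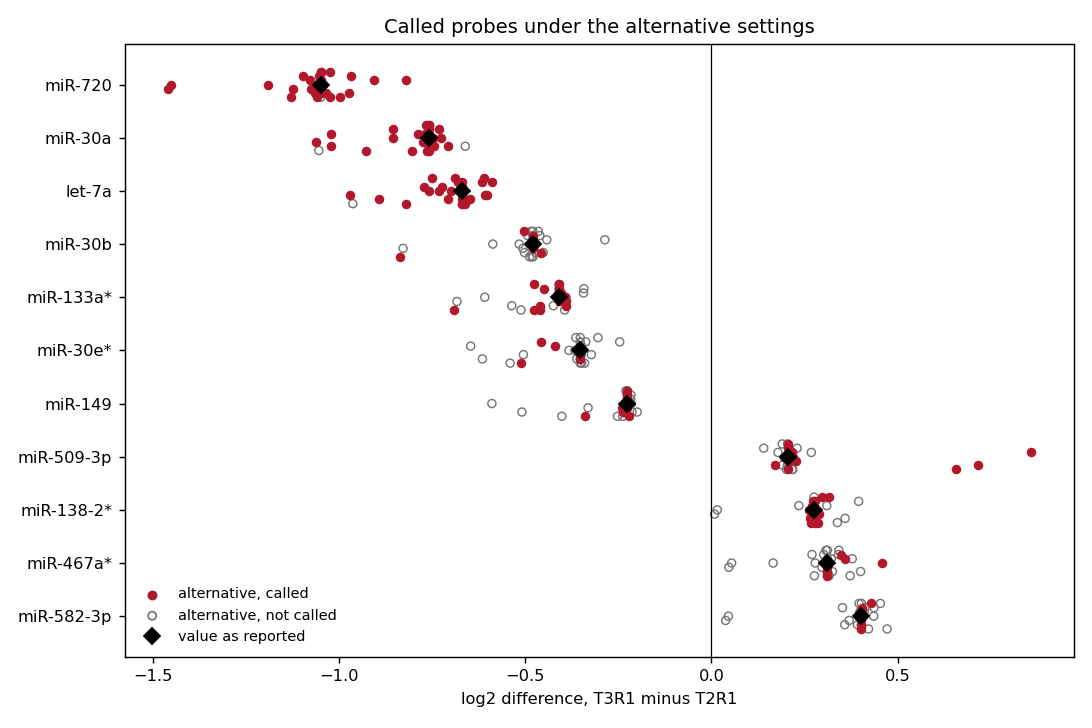
Log2 difference, T3R1 minus T2R1, of the 11 called probes as reported (black diamonds) and under the alternative settings, filled where called and open where not. No called probe crosses 0, and miR-720, miR-30a and let-7a are called in nearly every setting.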

How the data were processed

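Total RNA of 16 mouse hearts was hybridised to 8 2-colour Exiqon locked nucleic acid arrays, each with 2 samples of 1 group, one in Hy3 and one in Hy5. The authors deposited, per the file headers, the intensity of each spot and channel and its local background from Agilent Feature Extraction 9.5.3.1, unsubtracted. The deposited files also hold processed intensities and other spot marks of 0 or 1, and the authors added a log2 table of values for the same samples. The steps behind that table are not stated in any label or header, its centring stays unknown, and it served as an alternative.

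Intensities were corrected with normexp (offset 50), loess within arrays and Aquantile between arrays in R 4.3.3 with limma 3.58.1 (data.table, version 1.17.8, for reading). Spots marked as outliers (1.69% to 4.28% of spots in the 8 samples) were left out, saturated spots kept, and the 4 spots of a probe averaged. Missing values number 5, over 2 of the 1023 mouse probes. One limma model over 16 samples had group means, a dye term and the array as a random block (correlation 0.25), with eBayes and Benjamini-Hochberg adjustment over all tested probes. Slide run was no term, since no group spans both runs. The median standard error was 0.06 on the log2 scale, and 0.10 for probes above background in all 8 samples, and the number of arrays limits the precision. Exact permutation tests were two-sided.

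Same-numbered T3R1 and T2R1 samples deviated together from their group means (r = 0.323, 0.115, 0.201 and 0.481 over 142 probes), all above 0.1, the limit taken for a pairing. Same-numbered samples also share a dye, and with dye removed r was -0.0241 for numbers 1 and 3 and 0.196 for numbers 2 and 4. The labels do not say that the numbers mark a shared litter or day. Blocked values are given beside the named results whose call they change.

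The named probes are all called ones, the uncalled with the lowest p up to 30, and of each list every called member and its 2 brightest. The rest of the let-7 family, miR-144 and miR-21 were added after their values were seen. Members, lists and tests were chosen with earlier results of these data known. Alternatives covered background correction, normalization, the deposited values, spot and dim-probe filters, samples in the fit, array and replicate block, dye, and leaving out each sample or array. The fit was tested on simulated data.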

Additional observations from a re-analysis of the deposited data

Results flagged for a closer look

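In 154 groups of 4 values examined, 5 held a sample far from the other 3, and chance flags about 1 in 20 groups. T3R1 sample 3 read 6.78 for miR-499*, where the others read 6.96 to 6.98. T2R1 sample 2 read 7.81 for miR-24-1*, where the others read 7.86 to 7.87. T2R1 sample 3 read 8.38 for miR-15a, where the others read 8.47 to 8.49. T2R1 sample 4 read 9.62 for miR-16, where the others read 9.42 to 9.44, and 7.49 for miR-329, where the others read 7.61 to 7.62. None of these 5 probes was called between T3R1 and T2R1.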

How the results depend on the processing

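No called probe changed direction in any of the 28 alternatives. The count of 11 called probes (4 higher, 7 lower in T3R1) moved to 4 (1, 3) with normexp offset 0, with the deposited processed signals and with the deposited value table, 41 (2, 39) with median scaling, 1 (0, 1) with no step between arrays, 6 (1, 5) with quantile normalization, 3 of 197 probes (0, 3) with the dim filter, 18 (5, 13) without the array block, 3 (0, 3) with the array correlation of bright probes, 2 (0, 2) with arrays averaged, 1 (0, 1) in Hy3 samples, 5 (1, 4) in Hy5 samples and 28 (10, 18) with the replicate block. Leaving out 1 sample gave 4 to 18 calls (1 to 5 higher, 3 to 13 lower), fewest without T3R1 sample 3 or T2R1 sample 1 and most without T3R1 sample 1. Leaving out an array gave 17 and 3 (T3R1 samples 1 and 2, 3 and 4) and 9 and 5 (T2R1), with splits of 4 and 13, 0 and 3, 3 and 6, and 1 and 4. It was 14 with outlier spots kept, 11 without saturated spots and 12 with 8 samples only. The cause was not tested. With the replicate block the difference in probes above background was -3.75, as without it. Leaving out 1 sample moved it between -17.3 and 5.58.

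Of 2139 recomputed values of single probes, 60 over 28 uncalled probes changed sign, 149 lost a call and 68 gained one. Without the T3R1 array of samples 3 and 4 the value was 0.0020 for miR-15a, 0.041 for miR-19b, 0.021 for miR-16, 0.12 for miR-125a-5p, -0.0087 for miR-203, 0.11 for let-7i, 0.13 for let-7d, 0.10 for miR-106b, 0.15 for miR-143, 0.12 for let-7g, 0.20 for miR-125b-5p, 0.092 for let-7e, 0.052 for miR-223, 0.30 for let-7b, 0.24 for miR-24 and -0.050 for miR-487b. Without that of T3R1 samples 1 and 2 it was 0.15 for miR-329 and 0.0026 for miR-208b. Without that of T2R1 samples 1 and 2 it was 0.063 for let-7i, 0.025 for let-7e, 0.12 for miR-223, 0.052 for let-7b and -0.045 for miR-487b, and without that of samples 3 and 4 -0.059 for miR-122 and 0.35 for miR-24. Median scaling gave -0.0029 for miR-1186b, -0.0092 for miR-767, -0.16 for miR-98 and -0.19 for miR-487b, and no step between arrays -0.0019, -0.15 and -0.18 for the last 3. The deposited value table gave 0.043 for miR-208a-3p, 0.040 for miR-143, 0.057 for miR-125b-5p and -0.0045 for miR-487b. Hy3 samples gave 0.0076 for miR-26b, -0.0040 for miR-129-5p and -0.0092 for miR-203. Hy5 samples gave 0.0010 for miR-194, 0.0087 for miR-181d, 0.021 for miR-375, 0.063 for miR-208b and -0.041 for miR-487b. Offset 0 gave -0.019 for miR-129-5p, the replicate block 0.057 for miR-143, and quantile normalization -0.0040 for miR-487b. Leaving out 1 sample gave -0.0031 to 0.25 for miR-129-5p, -0.16 to 0.0042 for miR-223, -0.087 to 0.026 for miR-208b, -0.16 to 0.050 for let-7b, -0.29 to 0.086 for miR-24 and -0.013 to 0.044 for miR-487b. Dim signals limit the rest: 771 probes were above background in no sample.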
